A study of Homo sapiens with 6 samples.

Results

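Counts were followed on 10 nuclear pseudogenes that are copies of mitochondrial DNA (mtDNA) mRNA genes, in SH-SY5Y cells with and without the neurotoxin MPP+. The 10 are MTND5P10, MTND4P35, MTATP6P2, MTCO2P22, MTCO1P22, MTCO1P55, MTND5P19, MTND4P10, MTND3P8 and MTND5P15, out of 404 annotated nuclear copies of mtDNA protein genes and 67051 gene identifiers in the count tables. They were chosen by their own log2 fold changes after MPP+, which contrast: some copies are lowered as far as the mtDNA genes and others stay near the untreated level. Their changes against untreated cells are therefore given as a description, without a test. Of the 404 copies, 254 had 0 counts in every library, and 14 copies, the 10 listed ones and 4 others, had enough counts to be tested.

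Human mtDNA encodes 13 proteins, all of them parts of the oxidative phosphorylation machinery, and an RNA polymerase of its own transcribes it inside mitochondria. Over evolution, pieces of mtDNA were inserted into nuclear chromosomes, where they drift in sequence and are not translated into the mitochondrial proteins. Such a copy lies in the nuclear genome and is reached only by nuclear polymerases. It still resembles the mtDNA gene it came from, so short reads from the abundant mtDNA transcript and from the copy can be hard to tell apart.

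The measurement was PRO-seq, a run-on method in which polymerases engaged in isolated nuclei add biotin-labelled nucleotides to their RNA, which is then sequenced. SH-SY5Y is an established human neuroblastoma line. MPP+ (1-methyl-4-phenylpyridinium) blocks the respiratory chain at complex I. The 3 groups of 2 libraries each were untreated cells, cells given 0.1 mM MPP+ over 0.5 h and cells given 0.1 mM MPP+ over 24 h, all of 1 cell line in the same high-glucose medium. Separate cultures are not stated for the replicates, so all errors and p-values measure the spread between libraries, which may be technical.

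The libraries held 5983066 to 11707612 assigned counts, and 24 h replicate 2 was the shallowest. Of 10 adrenergic neuroblastoma markers, 9 had at least 10 counts in every library, all but TH (2 to 10 counts), and 0 were at 0 in every library. So had 4 of 5 mesenchymal or fibroblast, 1 of 3 blood and 3 of 3 epithelial markers, so this count does not set the lists apart. The summed level of the adrenergic markers was 2757 to 3676 CPM (counts scaled to a common library total). It was 19.2 to 24.1 CPM over the mesenchymal or fibroblast markers, 3.33 to 5.45 CPM over the blood markers and 158 to 201 CPM over the epithelial markers. The median log2 fold change over all 23133 tested genes was 0.0079 at 0.5 h and 0.0020 at 24 h. The scaling between libraries sets the bulk of genes near 0, so these medians cannot show a change common to all genes. The changes below are relative to that bulk. All levels are CPM scaled by the TMM method, and n counts libraries.

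A copy was classed as following mtDNA where its log2 fold change was at or below -1 at both times, and as near control where it lay within 0.5 of 0 at both times. By this rule 5 of the 10 copies followed mtDNA: MTCO1P22, MTCO2P22, MTATP6P2, MTND4P35 and MTND5P10. Near control were 4 copies, MTND5P19, MTND4P10, MTND3P8 and MTND5P15, and MTCO1P55 fell between the classes. Of all tested genes, 0.281% met the first definition and 87.5% the second. The 13 mtDNA mRNAs all met the first. The copies nearest to the limits were MTCO1P22, inside the first with -2.37 at 24 h, MTND4P10, inside the second with -0.35 at 0.5 h, and MTCO1P55, outside both with -0.67 at 0.5 h and 0.64 at 24 h.

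The 2 classes also differed in a property the rule did not use, their sequence. Stretches of 90 bases are printed here for MT-ND5 and MT-ND4, which have copies in both classes, and for the copy closest to mtDNA, read 5′ to 3′ on the strand of the gene, with each base that differs from the mtDNA gene in capitals. Each is the gap-free stretch shared by all listed copies of that gene in which the copy closest to mtDNA has the fewest differences, so the stretches flatter that copy. Sequences and positions are those of GENCODE 29 on hg38 (GRCh38).

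MT-ND5 encodes a proton-pumping subunit of complex I and has 3 listed copies. The stretch lies at chrM:13196-13285 (plus strand). In MTND5P10 (chr5:100047837-100047926, minus strand), which followed mtDNA, 8 of the 90 bases differ. In the near-control copies, 20 differ in MTND5P15 (chr3:177010757-177010846, minus strand) and 19 in MTND5P19 (chr1:235538899-235538988, minus strand).
MT-ND5: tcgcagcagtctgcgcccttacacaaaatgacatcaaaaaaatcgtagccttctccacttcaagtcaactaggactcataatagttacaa
MTND5P10: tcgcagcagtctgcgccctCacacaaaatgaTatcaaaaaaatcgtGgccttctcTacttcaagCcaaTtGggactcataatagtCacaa
MTND5P15: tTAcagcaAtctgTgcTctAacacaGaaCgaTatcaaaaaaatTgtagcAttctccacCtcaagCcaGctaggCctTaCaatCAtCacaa
MTND5P19: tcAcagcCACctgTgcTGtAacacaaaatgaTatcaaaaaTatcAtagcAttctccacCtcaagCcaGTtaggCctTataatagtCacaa

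MT-ND4 encodes another membrane subunit of complex I. Its stretch lies at chrM:11612-11701 (plus strand). MTND4P35 (chr5:100049421-100049510, minus strand), which followed mtDNA, has 4 differences, and MTND4P10 (chr1:235540474-235540563, minus strand), near control, has 25.
MT-ND4: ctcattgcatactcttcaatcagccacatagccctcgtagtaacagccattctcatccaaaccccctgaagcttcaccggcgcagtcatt
MTND4P35: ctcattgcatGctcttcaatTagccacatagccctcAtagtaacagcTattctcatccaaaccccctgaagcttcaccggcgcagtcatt
MTND4P10: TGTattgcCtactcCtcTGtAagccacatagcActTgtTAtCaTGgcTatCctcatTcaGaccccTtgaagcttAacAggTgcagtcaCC

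MT-CO2 encodes the subunit of cytochrome c oxidase that takes electrons from cytochrome c. Its stretch lies at chrM:8153-8242 (plus strand), and MTCO2P22 (chr5:100052883-100052972, minus strand), the listed copy closest to mtDNA, has 3 differences.
MT-CO2: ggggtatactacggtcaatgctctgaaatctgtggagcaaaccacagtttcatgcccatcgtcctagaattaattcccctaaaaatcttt
MTCO2P22: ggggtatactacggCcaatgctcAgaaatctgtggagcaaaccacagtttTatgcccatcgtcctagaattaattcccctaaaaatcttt

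Over their whole alignments, the 5 copies that followed mtDNA were 85.8% to 90.2% identical to their mtDNA genes, and the 4 near-control copies 74.4% to 77.9%. The ranges do not overlap. MTCO2P22 was at 90.2% (681 aligned positions), MTND4P35 at 89.8% (1375), MTATP6P2 at 88.2% (678), MTND5P10 at 87.7% (1809) and MTCO1P22 at 85.8% (1368). Of the near-control copies, MTND5P15 was at 77.9% (312), MTND3P8 at 76.6% (171, which is 50.4% of the copy), MTND5P19 at 75.1% (1724) and MTND4P10 at 74.4% (1306). MTCO1P55, between the classes by its counts, had an identity like the near-control copies, 75.2% (717).

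The copies were also searched for exact matches, at a length of 30 bases set here, since the read length is not given in the sources used here. Of all 30-base windows of a copy, 1.57% (MTND5P10) to 4.62% (MTATP6P2) occur without a mismatch in an mtDNA gene for the copies that followed mtDNA, and 0% for the other 5 listed copies. At 50 bases only MTND4P35 had any shared window (0.0754%), so this split depends on the length. The longest stretch identical to the mtDNA gene was 37 bases in MTND5P10, 39 in MTCO1P22, 46 in MTATP6P2, 47 in MTCO2P22 and 50 in MTND4P35. It was 15 bases in MTND3P8, 17 in MTCO1P55, 20 in MTND5P15, 22 in MTND4P10 and 25 in MTND5P19. The copies also differed from each other: MTND5P15 and MTND5P19, both near control, were 90.1% identical over 314 positions, while MTND5P10 was 77.4% identical to the first and 75.7% to the second, and MTND4P35 and MTND4P10 were 73.5% identical. How the authors treated a read that fits mtDNA and a copy equally well is not given in the sources used here, and its part in the counts was not tested.

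The classes were also split by locus. All 5 copies that followed mtDNA lie in 1 block on chromosome 5 (chr5:100045928-100055045, 9118 bases), which holds 10 annotated copies in the order that their genes have on mtDNA, from MT-CO1 to MT-CYB. They therefore share 1 insertion site and are not independent of each other. Of the near-control copies, MTND3P8, MTND4P10 and MTND5P19 lie in a block of 6 copies on chromosome 1 (chr1:235537520-235542390, 4871 bases), again in mtDNA order. MTND5P15 stands alone on chromosome 3 (chr3:177010719-177011067), and MTCO1P55 (chr7:141801315-141802059) is in a block of 3 copies. All 10 are annotated as processed pseudogenes of a single exon on the minus strand. MTND4P35 and MTND4P10 each overlap a neighbouring copy, MTND4LP5 and MTND4LP21, by a few bases.

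In the chromosome 5 block, counts of the listed copies were low in all 4 treated libraries. MTCO1P22 (ENSG00000271207.1, chr5:100053686-100055045), the copy of MT-CO1, the gene of the catalytic subunit of cytochrome c oxidase, had 41 and 30 counts in the untreated libraries, 7 and 5 at 0.5 h and 11 and 2 at 24 h. The treated libraries all lay below the untreated ones. As levels these were 4.72 ± 1.70 CPM (SD, n = 2) untreated, 0.596 ± 0.0294 CPM at 0.5 h and 0.814 ± 0.692 CPM at 24 h, with log2 fold changes of -2.92 ± 0.58 (SE, edgeR) and -2.37 ± 0.56. At 24 h the value was -3.77 without 24 h replicate 1 and -1.82 without 24 h replicate 2. In bulk libraries, fewer cells with a transcript and less RNA per cell cannot be told apart.

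MTCO2P22 (ENSG00000270225.1, chr5:100052859-100053539) had 27 and 10 counts untreated, 1 and 3 at 0.5 h and 4 and 1 at 24 h. The untreated replicates were the most unlike of the 5 copies, at 3.90 and 1.17 CPM, yet both lay above every treated library. Its log2 fold changes were -3.50 ± 1.06 at 0.5 h and -2.77 ± 0.96 at 24 h. At 24 h the value was -1.74 without untreated replicate 1, -3.46 without untreated replicate 2 and -3.78 without 24 h replicate 1. At 0.5 h it was -2.47 and -4.19 when untreated replicate 1 or 2 was left out, and -2.75 and -4.56 when 0.5 h replicate 1 or 2 was.

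MTATP6P2 (ENSG00000270307.1, chr5:100051920-100052597) is the copy of MT-ATP6, the gene of the proton-channel subunit of ATP synthase. It had 9 and 12 counts untreated, 0 and 2 at 0.5 h and 2 and 1 at 24 h. It was the weakest of the 5 in counts, and its fold change is correspondingly loose: pooled over the 2 libraries of a group it was 13.6-fold lower at 0.5 h (95% interval 3.33 to 120, counting error only) and 6.61-fold lower at 24 h (1.97 to 34.6). The fitted log2 fold changes were -3.58 ± 1.04 and -2.64 ± 0.87, and the first was -2.48 without 0.5 h replicate 1 and -6.51 without 0.5 h replicate 2.

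MTND4P35 (ENSG00000270906.1, chr5:100048988-100050362) had 24 and 27 counts untreated, 8 and 3 at 0.5 h, and 4 and 4 at 24 h. Its replicates were close in the untreated libraries, at 3.46 and 3.17 CPM, and its log2 fold changes were equal at both times, -2.56 ± 0.44 and -2.56 ± 0.50. MTND5P10 (ENSG00000271687.1, chr5:100046977-100048785) had 21 and 29 counts untreated, 2 and 7 at 0.5 h, and 2 and 4 at 24 h, with log2 fold changes of -2.80 ± 0.59 and -2.93 ± 0.70. For MTND5P10 these were -1.98 without 0.5 h replicate 1 and -4.09 without 0.5 h replicate 2, and at 24 h -2.29 without 24 h replicate 1 and -3.69 without 24 h replicate 2. For MTND4P35 the 0.5 h value was -3.20 without 0.5 h replicate 1. Neither copy overlapped between untreated and treated libraries.

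**Figure D1:**
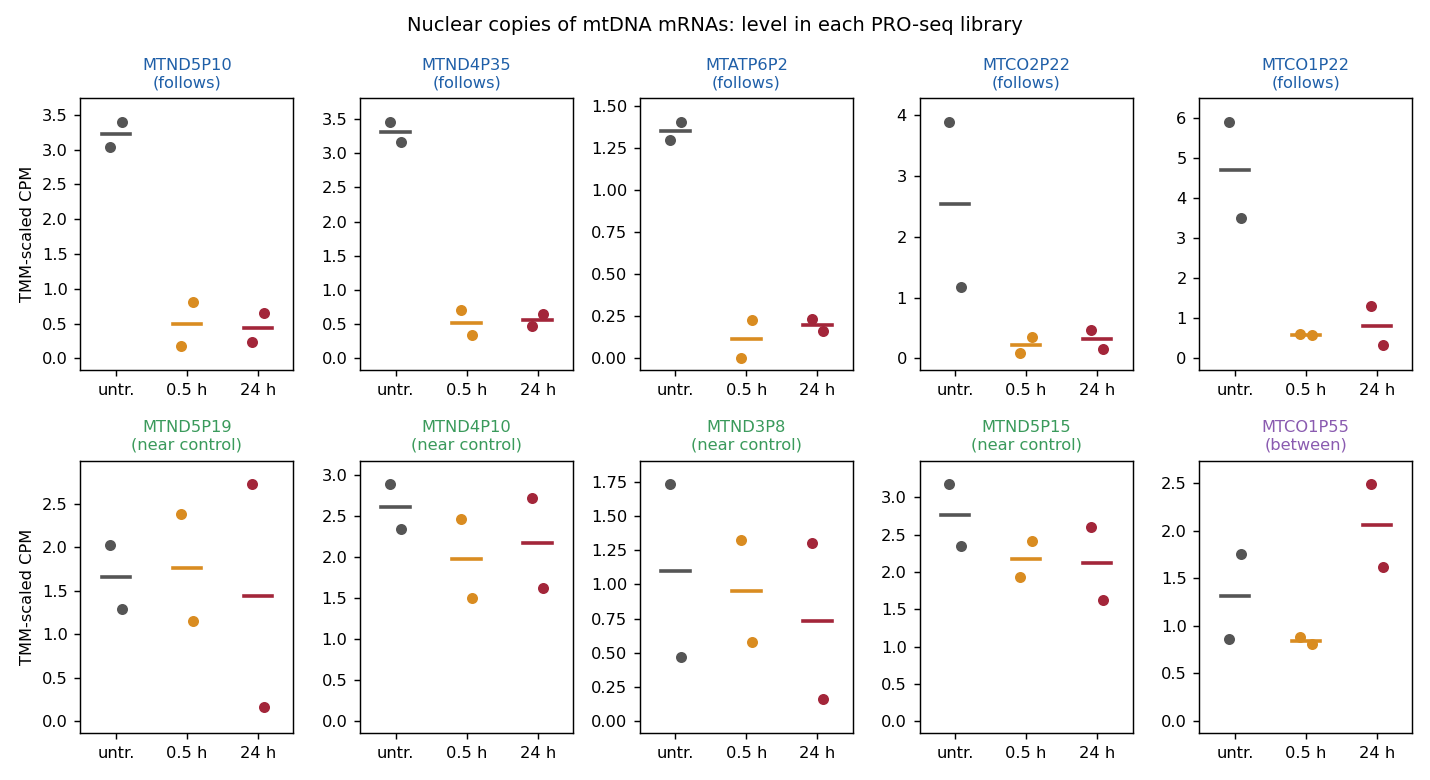
Level of each listed copy in each library, as TMM-scaled CPM (y axis, each panel with its own scale), by group (x axis: untreated, MPP+ 0.5 h, MPP+ 24 h); dots are libraries and bars the mean of 2. In the 5 panels of the chromosome 5 block (top row) both untreated dots lie above all 4 treated dots, while in the bottom row the groups overlap in most panels, and MTND5P19 and MTND3P8 have 1 low 24 h library each.

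Over the 5 copies of this block the median log2 fold change was -2.92 at 0.5 h (7.57-fold lower) and -2.64 at 24 h (6.23-fold lower). The 13 mtDNA mRNAs had medians of -2.19 and -2.06, and the median over all tested genes lay near 0, where the scaling sets it. All 4 treated libraries were below both untreated ones for 5 of the 10 listed copies, against 6.58% of all tested genes. A log2 fold change below 0 was seen for 9 copies at 0.5 h (47.9% of all tested genes) and 9 at 24 h (49.6%). In the edgeR quasi-likelihood test with Benjamini-Hochberg adjustment over all tested genes, 0 of the 10 copies passed in the lower direction at 0.5 h (0.0735% of all tested genes did) and 0 at 24 h (0.0692%). At an unadjusted p under 0.05, 5 copies lay lower at 0.5 h (background 1.44%) and 5 at 24 h (background 3.99%), and DESeq2 called 0 at either time (0.0865% and 0.0778% of genes). A fit with a term for the replicate number called 4 of the copies at each time. Since these contrasts chose the copies, nothing is read from the counts.

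Pooling the 5 copies gave values with less counting error. Their summed counts were 122 and 108 untreated, 18 and 20 at 0.5 h, and 23 and 12 at 24 h, or 15.1 ± 3.50, 1.94 ± 0.51 and 2.34 ± 0.55 CPM (SD, n = 2). The sum was 7.85-fold lower at 0.5 h (95% interval 5.55 to 11.4, counting error only) and 6.21-fold lower at 24 h (4.34 to 9.13). The 5 mtDNA genes that they are copies of were 4.79-fold lower (4.58 to 5.01) and 4.46-fold lower (4.24 to 4.68). The copies were chosen on these fold changes, so no difference from the mtDNA genes is read from the sums.

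The block holds 5 further copies that were not listed, MTCO3P22, MTND3P19, MTND4LP5, MTND6P22 and MTCYBP22. None had enough counts to be tested alone. MTCO3P22, the copy of the gene for the third core subunit of cytochrome c oxidase, had 6 and 11 counts untreated, 3 and 2 at 0.5 h, and 3 and 3 at 24 h. Together the 5 had 18 and 19 counts untreated, 5 and 5 at 0.5 h, and 7 and 6 at 24 h. The groups did not overlap, and the sum was 4.80-fold lower at 0.5 h (95% interval 2.34 to 10.8, counting error only) and 2.69-fold lower at 24 h (1.40 to 5.51). The exact permutation test over libraries gave p = 0.333 at both times (two-sided, n = 2 per group), the smallest p that 2 against 2 allows.

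In the chromosome 1 block the listed copies stayed near the untreated level or varied between replicates. MTND4P10 (ENSG00000226663.2, chr1:235540053-235541415) had 20 and 20 counts untreated, 28 and 13 at 0.5 h, and 23 and 10 at 24 h. Its groups overlapped, at 2.62 ± 0.38 CPM untreated, 1.98 ± 0.69 at 0.5 h and 2.17 ± 0.78 at 24 h, and its log2 fold changes were -0.35 ± 0.38 and -0.21 ± 0.40. MTND4P10 left the near-control class without untreated replicate 2 (-0.51 at 0.5 h), 0.5 h replicate 1 (-0.79 at 0.5 h) or 24 h replicate 1. MTND5P19 (ENSG00000231199.2, chr1:235538052-235539845) had 14 and 11 counts untreated, 27 and 10 at 0.5 h, and 23 and 1 at 24 h. Its log2 fold change was 0.17 ± 0.69 at 0.5 h, and pooled over libraries its level at 24 h was 1.02-fold the untreated one.

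The 24 h level of MTND5P19 is a mean of 2 unlike libraries, 2.72 CPM in replicate 1 and 0.162 CPM in replicate 2 (95% interval 0.0041 to 0.905 CPM, counting error only). Without 24 h replicate 1 its log2 fold change against untreated was -3.21. MTND3P8 (ENSG00000232714.1, chr1:235541759-235542097) is the copy of MT-ND3, of complex I. It had 12 and 4 counts untreated, 15 and 5 at 0.5 h, and 11 and 1 at 24 h, with log2 fold changes of -0.07 ± 0.73 and -0.34 ± 0.83. Without 24 h replicate 1 the 24 h value was -2.57, and without untreated replicate 1 the values were 1.06 and 0.78. The class of neither copy is firm: MTND3P8 also left it without either untreated replicate, without 0.5 h replicate 1, with DESeq2 and with a replicate block, and MTND5P19 without untreated replicate 1, 0.5 h replicate 2 or 24 h replicate 2.

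MTND5P15 (ENSG00000231888.1, chr3:177010719-177011067), lies on another chromosome. It had 22 and 20 counts untreated, 22 and 21 at 0.5 h, and 22 and 10 at 24 h, or 2.76 ± 0.59, 2.18 ± 0.34 and 2.11 ± 0.69 CPM. Its log2 fold changes were -0.34 ± 0.35 and -0.32 ± 0.37. It left the near-control class without untreated replicate 2 (-0.57 at 0.5 h and -0.55 at 24 h) or without 24 h replicate 1. Per kilobase of its length it had the highest untreated level of the 10 copies, 7.91 CPM, against 0.923 CPM for MTND5P19 at the other end and 1.76 to 3.72 CPM for the rest.

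The 4 near-control copies together had 68 and 55 counts untreated, 92 and 49 at 0.5 h, and 79 and 22 at 24 h. The sum was 1.13-fold lower at 0.5 h (95% interval 0.882 to 1.45, counting error only) and 1.15-fold lower at 24 h (0.877 to 1.51). The mtDNA genes MT-ND3, MT-ND4 and MT-ND5 that they are copies of were 4.71-fold and 4.91-fold lower. Leaving out 1 library left fewer of the 4 in the near-control class: 2 without untreated replicate 1, 1 without untreated replicate 2, 2 without 0.5 h replicate 1, 0 without 24 h replicate 1, and 3 without either of the other libraries.

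The 3 unlisted copies of the chromosome 1 block, MTCO3P46, MTND4LP21 and MTND6P14, had 6 and 5 counts untreated, 14 and 11 at 0.5 h, and 16 and 11 at 24 h. Their sum lay higher in the treated libraries: it was 1.75-fold the untreated level at 0.5 h and 2.60-fold at 24 h, where the untreated level was 0.385 of the treated one (95% interval 0.172 to 0.802, counting error only). The exact permutation p was 0.333 at both times (two-sided, n = 2 per group, the smallest possible). In 24 h replicate 2, where MTND5P19 and MTND3P8 had 1 count each, these 3 copies had 11 counts.

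**Figure D2:**
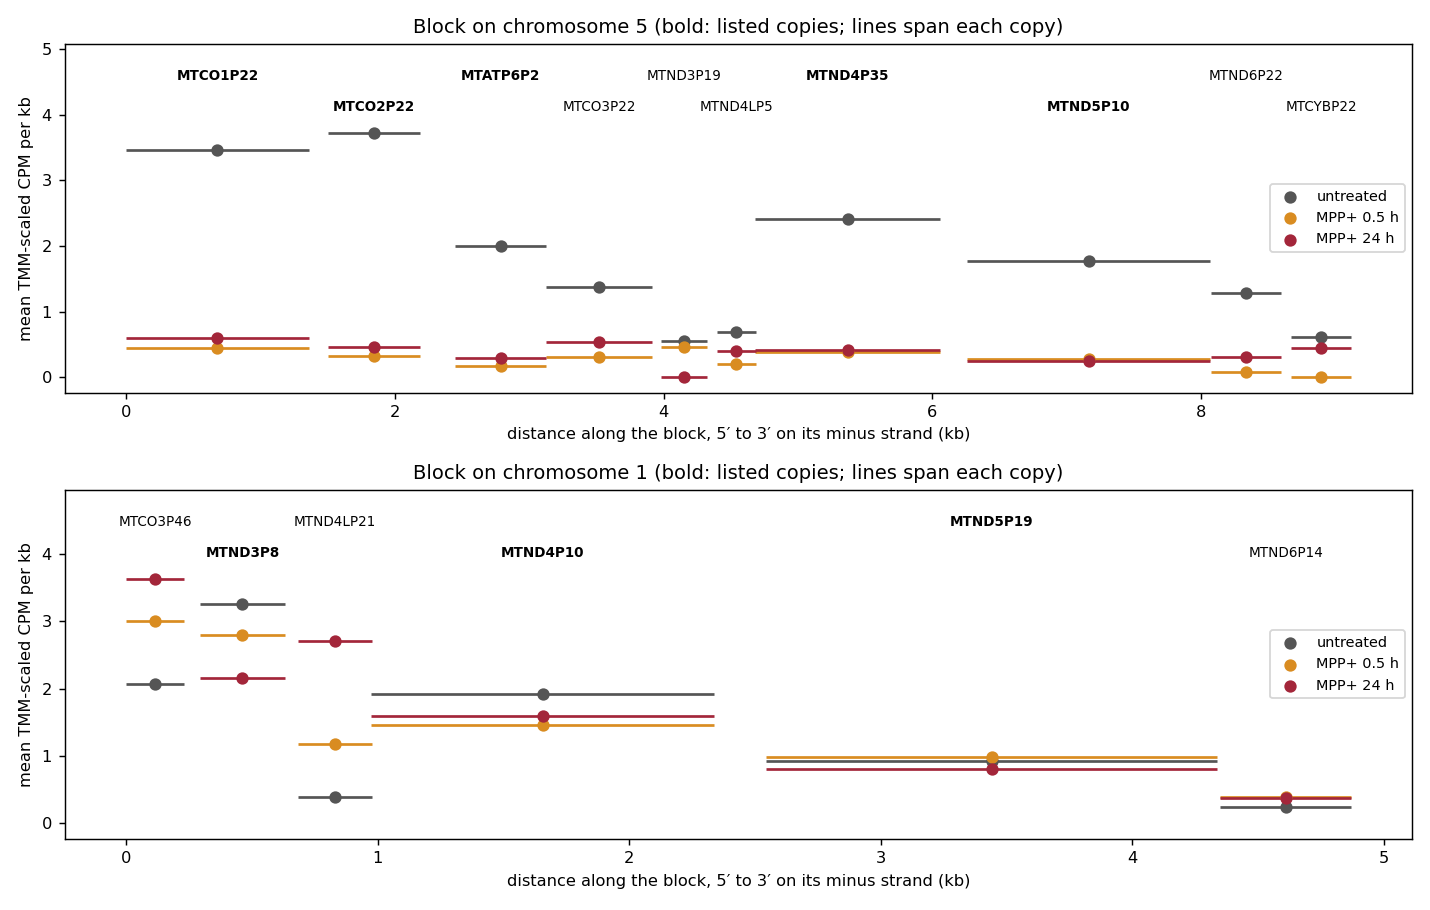
Level per kilobase along the 2 blocks of adjacent copies (y axis: mean TMM-scaled CPM per kb of 2 libraries; x axis: distance from the 5′ end of the block in kb), by group; each line spans 1 copy and the listed copies are in bold. On chromosome 5 the untreated level of the listed copies, which were chosen by their changes, lies above both treated levels. The unlisted copies there rest on few counts: MTND3P19 had 1 and 2 counts both untreated and at 0.5 h. On chromosome 1 the order of the groups varies from copy to copy.

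MTCO1P55 (ENSG00000241926.1, chr7:141801315-141802059) followed neither pattern. It had 6 and 15 counts untreated, 10 and 7 at 0.5 h, and 21 and 10 at 24 h, or 1.31 ± 0.63, 0.843 ± 0.0537 and 2.06 ± 0.61 CPM. Its log2 fold changes against untreated were -0.67 ± 0.49 and 0.64 ± 0.43, and both depended on the untreated library used: without untreated replicate 2 they were -0.04 and 1.26, and without untreated replicate 1 they were -1.04 and 0.26. Its neighbours MTND2P5 and MTND1P3 together had 7 and 11 counts untreated, 12 and 13 at 0.5 h, and 11 and 13 at 24 h.

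The comparison of 24 h with 0.5 h was not used to list the copies, and it asks whether they moved on between the 2 times. None of the 10 passed the edgeR quasi-likelihood test with Benjamini-Hochberg adjustment, nor did any other gene in either direction (background 0%), and DESeq2 called 0 genes. The 5 copies that followed mtDNA had differences of -0.13 to 0.94 on the log2 scale, with a smallest adjusted p of 0.907, and the 4 near-control copies -0.28 to 0.14, with a smallest adjusted p of 0.968. The class definition bounds the difference of the near-control copies in advance, so its size is no evidence that they did not move. At an unadjusted p under 0.05, 1 copy lay higher at 24 h (background 2.91%) and 0 lay lower (background 3.57%). The copy was MTCO1P55, higher by 1.30 ± 0.45 (SE, edgeR, unadjusted p = 0.0153, adjusted p = 0.753). The standard errors of the copies that followed mtDNA were 0.60 to 1.34 in this comparison, so changes of 2-fold between the times were not detectable at this depth.

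**Figure D3:**
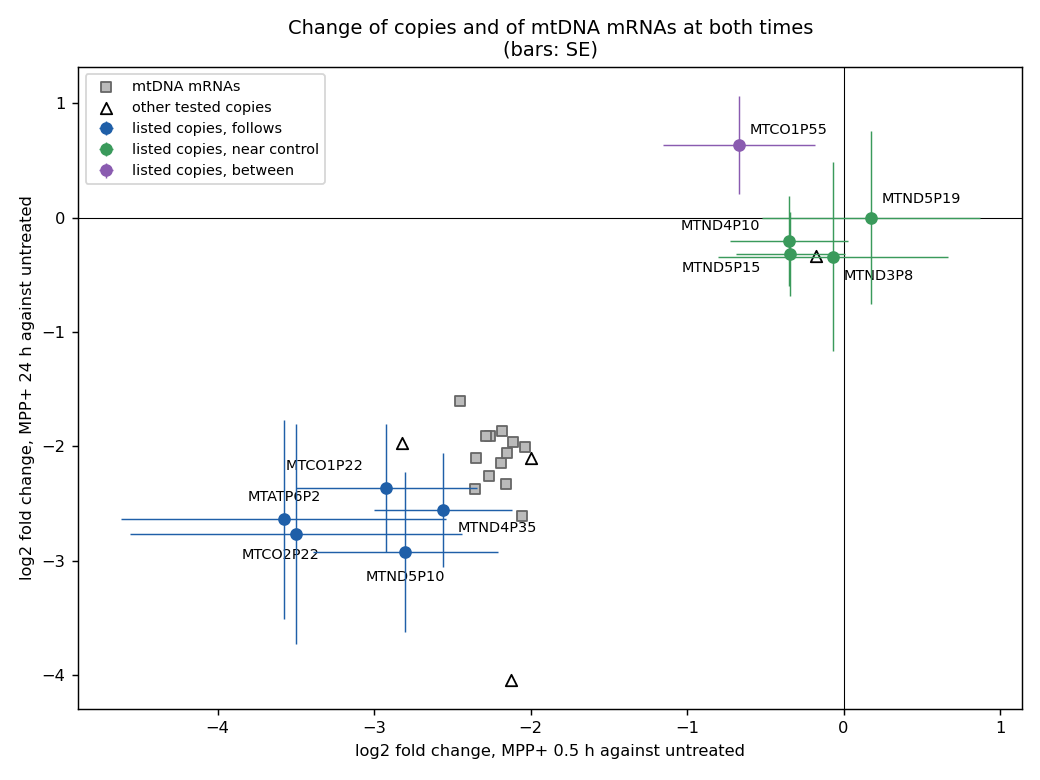
Log2 fold change against untreated at 0.5 h (x axis) and at 24 h (y axis) for the listed copies (circles, bars are 1 SE), 4 other tested copies (triangles) and the 13 mtDNA mRNAs (squares). The 5 copies of the chromosome 5 block lie with the mtDNA mRNAs at the lower left, and the near-control copies lie near the origin; both axes share the untreated libraries.

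A copy that stays level while its mtDNA gene falls gains on that gene. The near-control copies together had 3.15% and 1.68% as many counts as MT-ND3, MT-ND4 and MT-ND5 in the untreated libraries, 12.6% and 6.37% at 0.5 h, and 13.2% and 4.91% at 24 h. The copies of the chromosome 5 block had 3.07% and 2.06% of the counts of their 5 mtDNA genes untreated, 1.44% and 1.61% at 0.5 h, and 1.87% and 1.66% at 24 h. The rise of the first share follows from the definition of the class, which keeps copies that stay level while their mtDNA genes are lowered, and is no separate result. Untreated, the 2 groups of copies thus stood at about the same share of their mtDNA genes.

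The values of single copies are likewise a description. On the scale of mean CPM per kilobase, MTND5P15 stood at 7.98% of MT-ND5 untreated, 27.9% at 0.5 h and 30.7% at 24 h, while MTND5P10 stood at 1.79%, 1.21% and 1.24% of the same gene. For MT-ND4, MTND4P10 went from 1.93% to 6.96% and 7.64%, and MTND4P35 from 2.42% to 1.83% and 1.96%. For MT-CO1, MTCO1P55 went from 1.74% to 5.34% and 10.3%, and MTCO1P22 from 3.42% to 2.07% and 2.24%. The change of the median log2 ratio of copy to mtDNA gene, from log2 CPM with a prior count of 2, was 1.92 at 0.5 h and 1.97 at 24 h for the near-control copies, and -0.18 and 0.06 for those of the chromosome 5 block. With 0.5 added to the raw counts instead, the last pair's 0.5 h value was -1.15. The median was taken in each library, so its change need not be that of a typical copy. With the prior count of 2, single near-control copies changed by 1.85 to 2.19 at 0.5 h and by 1.48 to 1.96 at 24 h. Single listed copies of the chromosome 5 block changed by -0.28 to -0.003 and by -0.41 to 0.29.

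**Figure D4:**
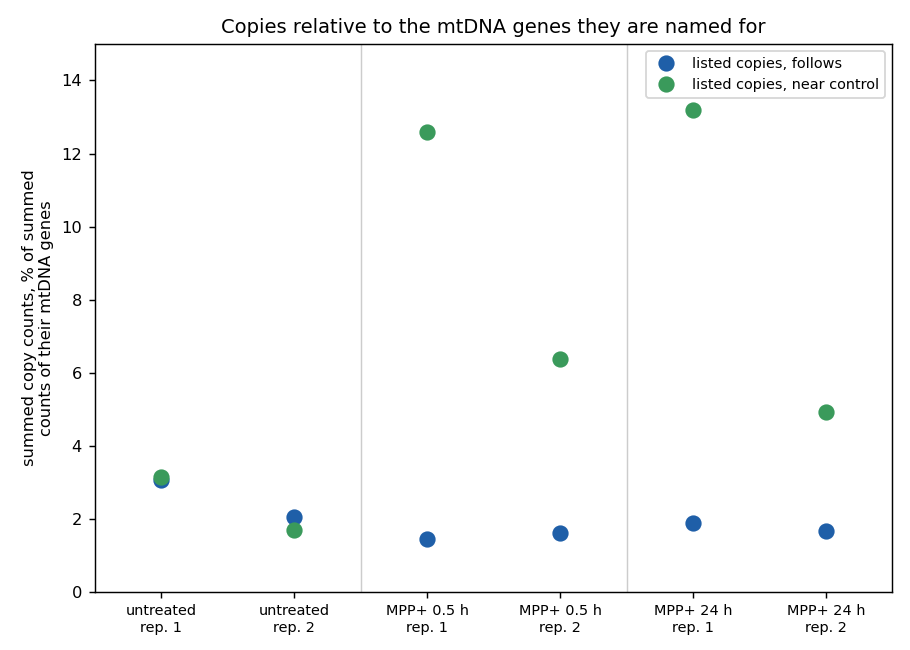
Summed counts of the copies that followed mtDNA (blue) and of the near-control copies (green), each as a percent of the summed counts of the mtDNA genes they are copies of (y axis), in each library (x axis). Both sets start at 1.68% to 3.15% in untreated cells; in treated libraries the near-control copies stand at 4.91% to 13.2% and the others at 1.44% to 1.87%.

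Whether identity to mtDNA and the fall went together beyond the listed copies was examined over all 404, of which 374 had at least 100 aligned positions. The classes of identity were drawn after values had been seen. Below 80% identity, the 300 copies other than the listed ones had 135 and 149 counts untreated, 162 and 120 at 0.5 h, and 136 and 98 at 24 h, a sum that was 1.31-fold lower (95% interval 1.10 to 1.55, counting error only) and 1.15-fold lower (0.961 to 1.37). From 80% to 85%, 28 copies had 15 and 6, 13 and 8, and 8 and 7 counts, 1.30-fold lower (0.674 to 2.50) and 1.32-fold lower (0.650 to 2.76).

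From 85% to 90%, the 16 unlisted copies had 17 and 20 counts untreated, 4 and 6 at 0.5 h, and 8 and 5 at 24 h, 4.80-fold lower (2.34 to 10.8) and 2.69-fold lower (1.40 to 5.51). The unlisted copies of the chromosome 5 block, with 18 and 19 untreated counts, were not taken out of the classes of identity. The sums are therefore not separate from that locus. Pooled over libraries, the class from 85% to 90% had 37 counts untreated, 10 at 0.5 h and 13 at 24 h. The unlisted copies of the chromosome 5 block had the same totals, so this class is not read as a second result. From 90% to 98%, the 15 unlisted copies had 123 and 178, 34 and 34, and 49 and 16 counts, 5.74-fold lower (4.40 to 7.59) and 4.38-fold lower (3.34 to 5.81). Of these 15, only 5 had any count, and MTCO1P40 with 71 and 106 untreated counts and the X chromosome block of MTCO1P53 with 46 and 68 held most of them, so this class describes mainly those 2 loci. In both classes every treated library had a lower scaled level than the untreated ones, and the exact permutation p was 0.333 (two-sided, n = 2 per group, the smallest possible). The same held, with a smaller difference, for the unlisted copies below 80%. They stood at 19.5 and 17.5 CPM untreated, 14.3 and 13.8 at 0.5 h, and 16.1 and 15.9 at 24 h (exact permutation p = 0.333 at both times). The intervals of the classes from 80% to 85% and from 85% to 90% overlap at both times, so no identity at which the change sets in can be given.

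**Figure D5:**
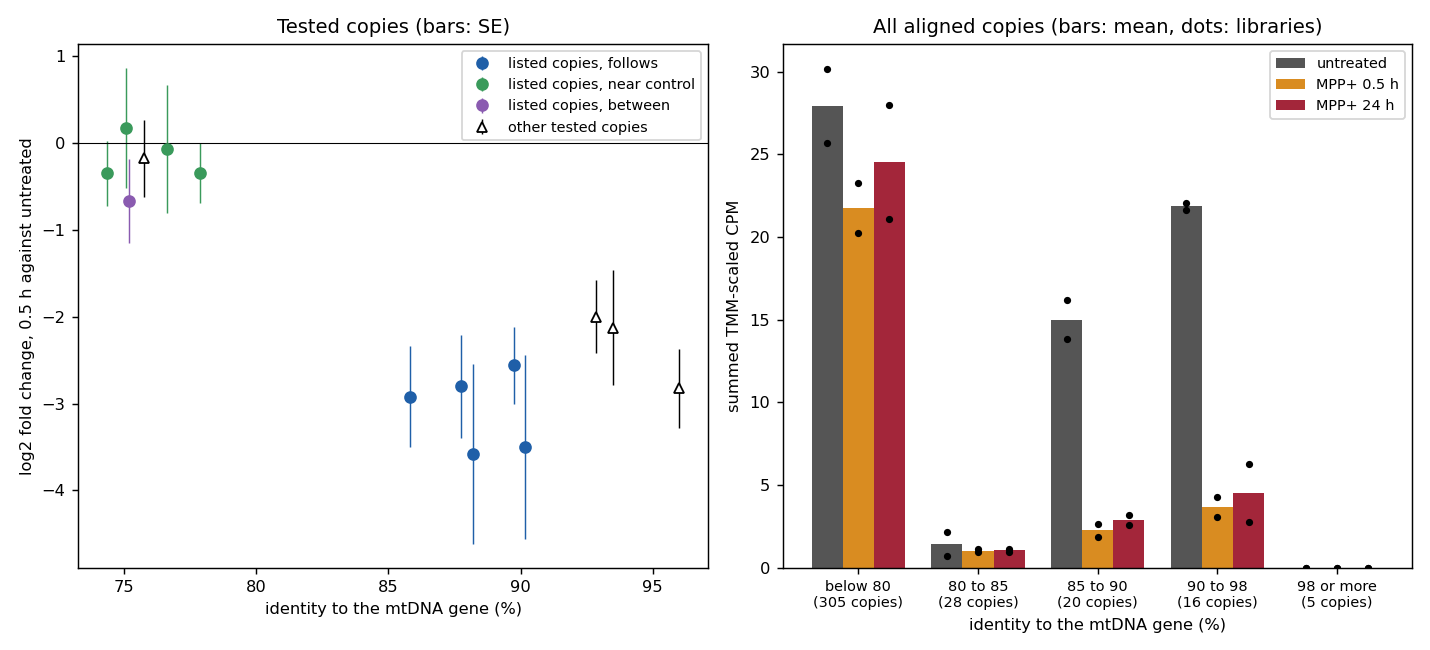
Left, log2 fold change at 0.5 h (y axis, bars are 1 SE) against identity to the mtDNA gene in percent (x axis) for the 14 tested copies. Right, summed TMM-scaled CPM of all copies in 5 classes of identity by group (bars are means, dots the 2 libraries): the treated level lies below the untreated one in the classes from 85% to 98%, all levels are 0 from 98% on, and the groups differ less below 85%. Both panels include the listed copies, which were chosen by their changes, so their part of the difference is no support. From 85% to 90%, the untreated counts were 112 and 118 with the 4 listed copies and 17 and 20 without them.

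The 4 other tested copies fell on both sides. MTCO1P40 on chromosome 17 (chr17:53105734-53106358), at 96.0% identity, had 71 and 106 counts untreated, 18 and 14 at 0.5 h, and 36 and 7 at 24 h. MTCO1P53 on the X chromosome (chrX:126471705-126472403), at 92.9%, had 29 and 40, 8 and 14, and 11 and 4 counts. Both met the definition for following mtDNA, with log2 fold changes of -1.97 ± 0.42 and -2.11 ± 0.48 at 24 h, as did MTND4LP1 (93.5%), with 10 and 11, 2 and 4, and 0 and 1 counts. MTND4LP1 passed the filter on low counts only through its untreated libraries, so its class is no support. The 5 listed copies that followed mtDNA also needed their untreated libraries to pass it, so the same limit holds for their class. MTCO1P1 on chromosome 21, at 75.8%, met that for near control, with 8 and 12, 16 and 7, and 11 and 4 counts and a log2 fold change of -0.18 ± 0.45 at 0.5 h. MTND5P28 (73.0%), among the 4 unlisted copies with the most counts but below the filter for testing, had 6 and 12, 4 and 10, and 8 and 5 counts.

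The copies most like mtDNA had no counts at all. All 5 copies at 98% identity or more, MTCO3P12, MTND2P28, MTATP6P1, MTCO1P12 and MTND1P23, lie together on chromosome 1 between 629062 and 634922. They had 0 counts in every library, which allows up to 3 counts per library each, or 0.256 to 0.501 CPM. Of their 30-base windows, 57.9% to 75.8% occur unchanged in an mtDNA gene. MTCO2P12 (97.95% identity, 51.8% of windows) and MTND4P12 (95.8%, 19.6%) were also at 0 in every library, whereas MTCO1P40 (96.0%, 20.3%) was the unlisted copy with the most counts.

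The genes upstream of the near-control copies were well covered and did not pass the test for a change. The 3 copies of the chromosome 1 block lie 5.59 kb (MTND3P8), 6.27 kb (MTND4P10) and 7.84 kb (MTND5P19) past the annotated end of GNG4, a G-protein gamma subunit gene on the same strand. GNG4 was at 252 ± 8.18 CPM (SD, n = 2) untreated, 251 ± 31.8 at 0.5 h and 256 ± 22.1 at 24 h, with log2 fold changes of -0.01 ± 0.12 and 0.02 ± 0.12 (edgeR, adjusted p = 0.9999 and 0.982). MTND5P15 lies 8.27 kb past the end of TBL1XR1, a subunit gene of a corepressor complex on the same strand. TBL1XR1 was at 308 ± 28.4, 307 ± 1.69 and 307 ± 22.9 CPM, with log2 fold changes of -0.01 ± 0.11 at both times (adjusted p = 0.9999 and 0.993).

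The copies that followed mtDNA have no such neighbour. The nearest protein-coding gene upstream on their strand is ST8SIA4, a sialyltransferase gene, 752 to 758 kb away, and it had 31 to 72 counts per library. The nearest annotated gene on their strand that is not an mtDNA copy is the pseudogene GUSBP7, 7.23 to 13.5 kb upstream, with 17 to 30 counts per library and log2 fold changes of -0.35 ± 0.28 and -0.16 ± 0.29 (adjusted p = 0.9999 and 0.925). GUSBP7 thus did not pass the test for a change. For MTCO1P55 the nearest protein-coding gene upstream on its strand was PRSS37, 34.2 kb away, with 0 to 4 counts per library. Whether RNA made downstream of these genes contributes to the counts of the copies was not tested.

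Of the authors' deposited tables of changed genes, the one for 0.5 h lists 17 genes and the one for 24 h lists 24, and 0 of the 10 copies are in either. For 0.5 h, 1 other nuclear copy is listed: MTCO1P40, with a log2 fold change of 0.63 (adjusted p = 4.17e-06) in the authors' deposited table. Its sign there is positive, as for all 12 mtDNA mRNAs that the table lists. The counts of MTCO1P40 and of the mtDNA mRNAs were lower after MPP+. The authors' comparison is named as untreated against MPP+, and the direction of its ratio is not stated, so the sign is not read as a conflict. The size differs: the edgeR fit gave MTCO1P40 a log2 fold change of -2.83 ± 0.46 (SE) at 0.5 h.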

How the data were processed

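PRO-seq libraries of SH-SY5Y cells were analysed from the deposited tables of raw counts per gene, 1 per library, which the authors did not normalize. Per the submitters' processing notes, the authors worked on hg38 and used Bowtie2 2.4.2 and featureCounts 2.0.1 beside cutadapt 1.16.5 for their counts. Their counting settings (strand, feature, multimapping) were, like the annotation release, not given in the sources used here. Per the file headers, the authors' deposited tables of changed genes give log2 fold changes and p-values, without the direction of the ratio. Of 41 rows of these tables found in GENCODE 29, 33 had the same start and end there.

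The listed copies, the lists and the classes were chosen with earlier results of these data known. The 67051 identifiers were matched to symbols (60437 from a gene name table, 213 from GENCODE 29). Named are the 10 copies in every library, their mtDNA genes and neighbours, and the 4 other copies of highest mean count; other copies are given as counts, and single copies among them (the block neighbours, MTCO2P12 and MTND4P12) were named after their values were seen. All 6 libraries (5983066 to 11707612 assigned counts) were fitted with edgeR 4.0.16 in R 4.3.3: filterByExpr by group (23133 genes kept), TMM factors (0.973 to 1.03), a quasi-likelihood fit with the newer dispersion moderation and 3 residual degrees of freedom, two-sided F tests, and Benjamini-Hochberg adjustment over all genes with a threshold of 0.05. The common biological coefficient of variation was 0.113. Standard errors come from the fitted weights and the moderated quasi-dispersion. DESeq2 1.42.0 was an alternative. Intervals of sums are exact 95% intervals of the ratio of 2 Poisson counts. PCR copies are not separated from molecules, so they cover counting error only. The 2 libraries of a group differed by more than counting error (chi-square per degree of freedom of 4.00 to 8.92). Copies were aligned to their mtDNA genes locally (Biopython 1.88, match 1, mismatch -2, gap opening -5, extension -2), with GENCODE 29 transcripts, and windows were searched on both strands of 37 mtDNA genes. The pipeline was tested on simulated data. The sequences of some copies are not reported here.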

Additional observations from a re-analysis of the deposited data

How the results depend on the processing

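The 5 copies classed as following mtDNA kept that class in every setting in which they were tested; with only the 2 groups compared in a fit, 3 followed, since MTATP6P2 and MTCO2P22 were left out by the filter there, and MTATP6P2 was not tested without untreated replicate 2. The 5 following copies needed their untreated libraries to pass the filter, so the steadiness of their class is no support for it. Without 1 library at a time, following copies ranged from 4 to 5 and near-control copies from 0 to 3. The number of copies called stayed at 0 in every setting run except the fit with a replicate block, which called 4 at 0.5 h and 4 at 24 h. That fit called 61 genes at 0.5 h (17 without the block), 698 at 24 h (16) and 397 for 24 h against 0.5 h (0). Deviations of same-numbered libraries correlated at 0.328 (untreated and 0.5 h), 0.293 (untreated and 24 h) and 0.312 (0.5 h and 24 h), but with 2 numbers per group and no label that ties them, the numbers were not taken to pair the libraries. DESeq2 called 31 genes at 24 h in both directions together. Leaving out 1 library gave 9 (without 0.5 h replicate 1) to 19 genes at 0.5 h and 9 (without untreated replicate 1) to 16 at 24 h, with 10 without 24 h replicate 2; the lone library of a group is then assumed to vary like the others. Among the following copies, the log2 fold change without 1 library ranged from -6.51 (MTATP6P2 at 0.5 h) to -1.74 (MTCO2P22 at 24 h). The change against untreated of the median log2 ratio of following copies to their mtDNA genes was -1.15 at 0.5 h with 0.5 added to raw counts. Without 1 library this change ranged from -0.55 to 0.19 at 0.5 h and from -0.31 to 0.42 at 24 h, so its sign depends on the untreated library used. The share of windows of following copies found in mtDNA was 2.74% at 30 bases, 8.32% at 20, 0.526% at 40 and 0.0177% at 50, and that of near-control copies 0% at 30 and 0.371% at 20. With few counts per treated library, as for MTATP6P2, the depth does not order the times.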

Other observations

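Blocks of adjacent copies elsewhere in the nuclear genome, each with at least 2 copies, none of them listed, and at least 30 counts over the 6 libraries, numbered 6 of 82 blocks. In 1 of them, on the X chromosome (MTCO1P53, MTND4LP1 and MTND4P24, 92.9% to 93.7% identity), the summed counts were 46 and 68 untreated, 15 and 20 at 0.5 h, and 13 and 7 at 24 h, 4.23-fold lower (95% interval 2.87 to 6.36, counting error only) and 5.38-fold lower (3.33 to 9.15). The other 5 blocks hold copies of at most 78.4% identity. The one of these with the most counts, 8 copies on chromosome 16, had 23 and 14 counts untreated, 40 and 15 at 0.5 h, and 12 and 12 at 24 h, with intervals of the ratio that include 1 (0.559 to 1.35 and 0.849 to 2.54, untreated over treated). A block of 8 copies on chromosome 2 (202614214 to 202619896) had 9 and 11 counts untreated, 23 and 18 at 0.5 h, and 24 and 13 at 24 h, 1.58-fold and 1.96-fold higher. A block of 11 copies on chromosome 4 (71.0% to 78.0% identity) had 9 and 6 counts untreated, 3 and 5 at 0.5 h, and 5 and 2 at 24 h, 2.43-fold lower (0.968 to 6.63) and 2.02-fold lower (0.777 to 5.87), with every treated library below the untreated ones on the CPM scale. The other 2 blocks, on chromosomes 2 and 21, had 45 and 30 counts in all, with intervals that include 1. For the X, chromosome 4 and first chromosome 2 blocks the exact permutation p over libraries was 0.333 (two-sided, n = 2 per group, the smallest possible).

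The genes whose log2 CPM over the 6 libraries was most like the sum of the copies that followed mtDNA were CCR12P (Pearson r = 0.9937), MT-CO1 (0.9903) and the mitochondrial tRNA gene MT-TC (0.9896), out of 23123 genes. All 13 mtDNA mRNAs had r above 0.9, as had 198 genes in all. For the sum of the near-control copies the leading genes were ICMT (0.9976), which methylates the ends of prenylated proteins, GATB (0.9953), which takes part in making mitochondrial glutaminyl-tRNA, and the pseudogene OFD1P18Y (0.9926). Of the genes, 343 had r above 0.9 with that sum, and the 13 mtDNA mRNAs had r from 0.22 to 0.53. With 6 libraries that share their scaling, and copies chosen by whether they follow mtDNA, which sets their likeness to the mtDNA mRNAs, these are descriptions only.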
